A study of Mus musculus with 6 samples.

Results

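Transforming growth factor beta (TGFβ) signaling was examined in alveolar macrophages (AMs) through 9 of its genes, which were picked by name as the ligands Tgfb1 and Tgfb2, the receptors Tgfbr1 and Tgfbr2, the signal carriers Smad2, Smad3 and Smad4, and the inhibitors Smad7 and Skil. All 9 were found by gene identifier among the 24341 genes of the expression table. The RNA came from AMs of female C57BL/6 mice of 6 to 10 weeks, either CD44+/+ or CD44-/-, with 3 samples per genotype. The cells were washed out of the airspaces by bronchoalveolar lavage (BAL) and treated to lyse red blood cells, without a sort, and no mouse received any other treatment. CD44 binds the matrix sugar hyaluronan, and no restriction of its loss to AMs was stated, so that other cells of these mice may lack it too. Each sample was a pool of mice, and the spread within a genotype is therefore between pools. By the paper the pools held unequal numbers of mice, which were not tied to replicate numbers. The allele behind the deletion was not given in the sources used here.

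TGFβ is secreted in a latent form bound to its own propeptide, and must be freed before it can bind. The free ligand engages the type II receptor Tgfbr2, which activates the type I receptor Tgfbr1. Tgfbr1 then phosphorylates Smad2 and Smad3, and these join Smad4 and enter the nucleus to regulate genes. Smad7 blocks the receptor and Skil represses Smad complexes in the nucleus, and both belong to the feedback on the pathway. TGFβ, some of it made by the AMs themselves, is required for AMs to develop and persist.

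Expression is given in FPKM, in which sequenced fragments are divided by transcript length and by the number of mapped fragments, so that levels of different genes can be set side by side. The genotypes of the samples were checked on Cd44, which had 527 to 540 FPKM in CD44+/+ AMs and 51.4 to 54.7 FPKM in CD44-/- AMs. Of 12 AM markers, 10 were listed in the table and none of these 10 passed the test between genotypes. Their summed level was 15458 to 17829 FPKM in CD44+/+ and 14588 to 18741 FPKM in CD44-/- samples. Markers of fibroblasts summed to at most 0.276 FPKM in any sample, and those of B cells to at most 0.588 FPKM. Transcripts of airway secretory cells reached 637 to 1353 FPKM summed over 7 genes, and those of alveolar type 2 cells 13.3 to 90.3 FPKM, the highest in CD44-/- replicate 3. Neutrophil markers summed to 33.6 to 79.4 FPKM. Markers of monocytes or dendritic cells summed to 6.08 to 6.61 FPKM in CD44+/+ and 6.58 to 7.42 FPKM in CD44-/- samples. The T cell list summed to 278 to 317 FPKM, of which Cd2 made up 277 to 316 FPKM, and the endothelial list to 12.9 to 17.3 FPKM, of which Vwf made up 12.8 to 17.2 FPKM (Cd2 and Vwf were named after their values were seen). The part of these transcripts in the results was not tested. Erythroid transcripts were highest in CD44-/- replicate 2, at 56.5 FPKM against 2.12 to 17.3 FPKM in the other samples.

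The pathway was expressed very unevenly in AMs. The ligand Tgfb1 and both receptors lay at 131 to 230 FPKM in all samples, whereas Smad3 reached at most 0.249 FPKM. From the highest to the lowest mean over the 6 samples, the order was Tgfb1 (220.3 FPKM), Tgfbr2 (165 FPKM), Tgfbr1 (143 FPKM), Skil (31.1 FPKM), Smad4 (17.4 FPKM), Smad2 (8.48 FPKM), Tgfb2 (2.08 FPKM), Smad7 (0.857 FPKM) and Smad3 (0.172 FPKM). No neighbors in this order overlapped in range, and the order was the same in 6 of 6 samples. The closest neighbors were the receptors, with at least 156 FPKM for Tgfbr2 and at most 152 FPKM for Tgfbr1. Only 1.44% of all genes had a higher mean than Tgfb1, against 48.5% for Smad3.

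**Figure D1:**
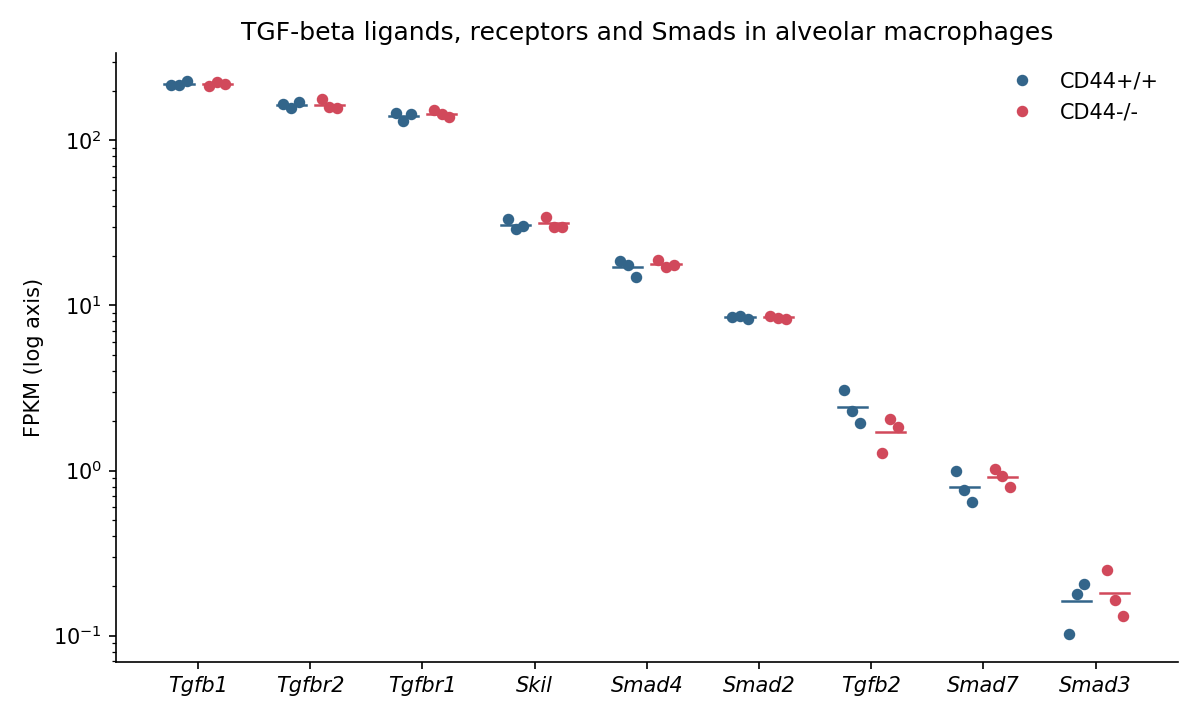
FPKM (vertical log axis) of the 9 genes in the 3 CD44+/+ and 3 CD44-/- samples, with genes in order of their mean level. Points are samples and bars are means of 3. The genotypes overlap in each gene, while the levels run from 230 FPKM in Tgfb1 to 0.102 FPKM in Smad3.

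None of the 9 genes differed between the genotypes by the test used. Of the 9, 8 had a mean of at least 0.5 FPKM and were tested, and 0 had an adjusted p under 0.05, beside 0.111% of the 10800 genes tested. At an unadjusted p under 0.05 there were also 0, beside 7.69% of all genes tested. In 0 of the 9 genes were the values of the genotypes separate, as they were in 11.6% of all genes tested. The log2 fold change, taken as CD44-/- over CD44+/+ on log2(FPKM + 0.1) throughout, was within 0.1 of zero in 6 of the 8 tested genes, and in 66.1% of all genes tested. Its median over the 8 genes was 0.01, and over all genes tested 0.01. The size of a change that could be seen depended on the level, since the median standard error was 0.06 for genes with a mean of 100 to 300 FPKM and 0.16 for those of 0.5 to 5 FPKM. Of the genes in the former range 79.4% had a log2 fold change within 0.1 of zero, and of those in the latter 41.7%. The smallest two-sided p that exact permutation allows for such groups of 3 is 0.1.

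Tgfb1, the main TGFβ ligand of leukocytes, is encoded on chromosome 7 between 25687002 and 25704996 (mm10, as are all positions given here). Sample values were 216, 217 and 230 FPKM in CD44+/+ AMs and 214, 225 and 220 FPKM in CD44-/- AMs. The lowest was CD44-/- replicate 1 and the highest CD44+/+ replicate 3, and the ranges overlapped over most of their width. CD44+/+ AMs averaged 221 ± 7.81 FPKM (SD, n = 3) and CD44-/- AMs 219.7 ± 5.51 FPKM (SD, n = 3), with a log2 fold change of -0.01 and a standard error of 0.05 (adjusted p = 0.989). The 95% interval ran from -0.12 to 0.10, so that a CD44-/- level under 0.922 or over 1.07 times the CD44+/+ level lay outside it. Of the platelet markers, listed because platelets are rich in TGFβ1, 4 of 5 stayed under 1 FPKM in every sample. The sum of all 5 was at most 4.76 FPKM, of which Pf4, named after its values were seen, made up at most 4.74 FPKM.

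Tgfb2, a second ligand for the same receptors, lies on chromosome 1 from 186623186 to 186705992. Its values were 3.07, 2.29 and 1.95 FPKM in CD44+/+ AMs and 1.27, 2.05 and 1.83 FPKM in CD44-/- AMs. CD44+/+ replicate 1 stood highest and CD44-/- replicate 1 lowest, and the groups overlapped only through CD44+/+ replicate 3 and CD44-/- replicate 2. Without either of these samples Tgfb2 had no overlap, as had 20.8% and 18.4% of all genes tested. CD44+/+ AMs averaged 2.44 ± 0.574 FPKM (SD, n = 3) and CD44-/- AMs 1.72 ± 0.402 FPKM (SD, n = 3). This was the largest difference of the 8 tested genes, a log2 fold change of -0.48 with a standard error of 0.22. It did not pass in limma (adjusted p = 0.665, unadjusted p = 0.0547). The authors, whose test was Cuffdiff, reported reduced Tgfb2 transcripts in CD44-/- AMs from these data, at a very low level beside Tgfb1. For Tgfb1 they reported no difference. Its 95% interval, -0.98 to 0.01, held both no difference and a fall to 0.507 times the CD44+/+ level. Leaving out any 1 of the samples gave negative values too, from -0.62 to -0.29, the smallest being -0.29 without CD44-/- replicate 1 and -0.31 without CD44+/+ replicate 1. In such bulk RNA, fewer cells that express a gene and less RNA per cell cannot be told apart. In the GENCODE annotation an exon of Tgfb2 overlaps a gene on the other strand. The library kit keeps the strand, but the use of strand in the counting was not given in the sources used here.

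On log2(FPKM + 0.1), Tgfb2 had the largest SD of the 9 genes over the 6 samples, 0.40 against 0.28 for Smad3 and 0.04 for Tgfb1. On log2 FPKM with nothing added, Smad3 was ahead with an SD of 0.46 against 0.42 for Tgfb2. The 3 tested genes whose centered log2 profile was closest to that of Tgfb2 over the 6 samples were Crtac1, Amer2 and Deb1. Their root mean square differences from it were 0.0961, 0.105 and 0.129. All of them were highest in CD44+/+ replicate 1 and lowest in CD44-/- replicate 1, as Tgfb2 was. Since they were picked for a like profile, this follows from the choice and is no separate result. Crtac1 had 0.934 FPKM in the former sample and 0.358 FPKM in the latter, and Deb1 19.8 and 9.53 FPKM.

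The type I receptor Tgfbr1, the kinase that acts on Smad2 and Smad3, lies on chromosome 4 from 47353305 to 47414924. It had 146, 131 and 144 FPKM in CD44+/+ AMs and 152, 144 and 139 FPKM in CD44-/- AMs, so that the groups overlapped and CD44+/+ replicate 2 was the lowest. Its log2 fold change was 0.05 with a standard error of 0.06 (adjusted p = 0.959) and a 95% interval from -0.09 to 0.18. Tgfbr2, the ligand-binding receptor, lies on chromosome 9 from 116087695 to 116175363. It had 167, 158 and 169.7 FPKM in CD44+/+ AMs and 178, 160.0 and 156 FPKM in CD44-/- AMs. CD44-/- replicate 1 thus lay above the CD44+/+ range, replicate 2 within it and replicate 3 under it. For Tgfbr2 the log2 fold change was -0.0049, with a standard error of 0.06, an adjusted p of 0.995 and a 95% interval from -0.14 to 0.13.

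Smad2, on chromosome 18 from 76241701 to 76311747, was the steadiest of the 9 genes. Its 3 CD44+/+ values were 8.55, 8.59 and 8.34 FPKM and its CD44-/- values 8.67, 8.43 and 8.31 FPKM, so that the highest sample was only 1.04 times the lowest. A log2 fold change of -0.0039 was found, with a standard error of 0.07 and a 95% interval of -0.15 to 0.15 (adjusted p = 0.998). Smad3, which is activated by the same receptor, lies on chromosome 9 from 63646767 to 63757994 and had 0.102, 0.179 and 0.205 FPKM in CD44+/+ AMs and 0.249, 0.164 and 0.131 FPKM in CD44-/- AMs. Its lowest value was in CD44+/+ replicate 1 and its highest in CD44-/- replicate 1, with the other samples in between in both groups. The mean of Smad3 was under 0.5 FPKM, so it was left out of the main test. Without that limit the estimate was 0.10 on the log2 scale (standard error 0.24, adjusted p = 0.951), on a scale where the added 0.1 FPKM is near the values themselves.

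Smad4, the partner shared by the TGFβ and bone morphogenetic protein (BMP) branches, lies on chromosome 18 from 73639013 to 73703741. Its values were 18.5, 17.6 and 14.9 FPKM in CD44+/+ AMs and 18.8, 17.0 and 17.7 FPKM in CD44-/- AMs. CD44+/+ replicate 3 was low and the other samples lay together. The log2 fold change was 0.07 with a standard error of 0.09 (adjusted p = 0.956, 95% interval -0.13 to 0.27).

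Of the inhibitors, Smad7 was low and Skil was not. Smad7, on chromosome 18 from 75367365 to 75395934, had 1.0, 0.760 and 0.641 FPKM in CD44+/+ AMs and 1.02, 0.932 and 0.791 FPKM in CD44-/- AMs. In both genotypes replicate 1 was highest and replicate 3 lowest, with overlap between them. For Smad7 the log2 fold change was 0.19 with a standard error of 0.22 (adjusted p = 0.956), and the 95% interval of -0.32 to 0.69 allowed levels from 0.802 to 1.61 times that of CD44+/+ AMs. It ran from 0.05 without CD44+/+ replicate 3 to 0.34 without CD44+/+ replicate 1. Skil, which encodes the corepressor SnoN and lies on chromosome 3 from 31095058 to 31122923, had 33.3, 29.0 and 30.3 FPKM in CD44+/+ AMs and 34.1, 30.0 and 30.0 FPKM in CD44-/- AMs. Again replicate 1 was highest in both genotypes. For Skil the log2 fold change was 0.02 with a standard error of 0.08 and a 95% interval of -0.15 to 0.20 (adjusted p = 0.986).

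**Figure D2:**
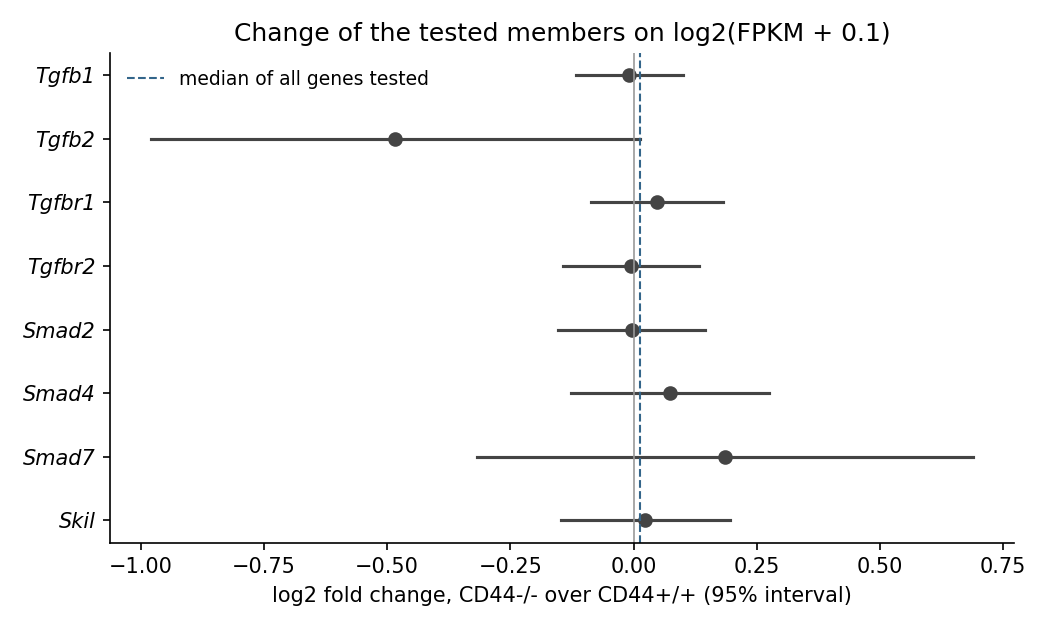
Log2 fold change (horizontal axis, CD44-/- over CD44+/+ on log2(FPKM + 0.1)) of the 8 tested genes, with points for the estimates and lines for the 95% intervals of limma. The dashed line is the median of all genes tested. Every interval includes zero, and those of Tgfb2 and Smad7 are the widest.

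Ratios within a sample, which do not depend on how the sample was scaled, were compared for 5 pairs of these genes. Tgfb1 was 70.4, 94.8 and 118 times as high as Tgfb2 in the CD44+/+ samples and 168, 109.8 and 120.2 times as high in the CD44-/- samples. The groups overlapped, since CD44+/+ replicate 3 was above CD44-/- replicate 2. The mean log2 ratio of Tgfb1 to Tgfb2 was higher by 0.50 in CD44-/- AMs (exact two-sided permutation test, p = 0.2, and 0.5 adjusted over the 5 ratios). That difference was 0.30 without CD44+/+ replicate 1, 0.32 without CD44-/- replicate 1 and at most 0.68, without CD44+/+ replicate 3. Tgfbr1 was 0.829 to 0.900 times as high as Tgfbr2, the tightest of the ratios, with a difference of 0.05 in the mean log2 ratio (exact permutation p = 0.2, adjusted 0.5).

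Smad2 exceeded Smad3 in all samples, by 83.9, 48.0 and 40.7 times in CD44+/+ AMs and by 34.8, 51.4 and 63.5 times in CD44-/- AMs. Smad7 was 3.13 to 9.80 times and Skil 137 to 327 times as high as Smad3. The highest of each of these 3 ratios was in CD44+/+ replicate 1, the sample with the least Smad3. Between the genotypes the 3 mean log2 ratios to Smad3 differed by -0.18, 0.04 and -0.15 for Smad2, Smad7 and Skil, in that order (exact permutation p = 0.7 to 1, adjusted p = 1 for each).

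**Figure D3:**
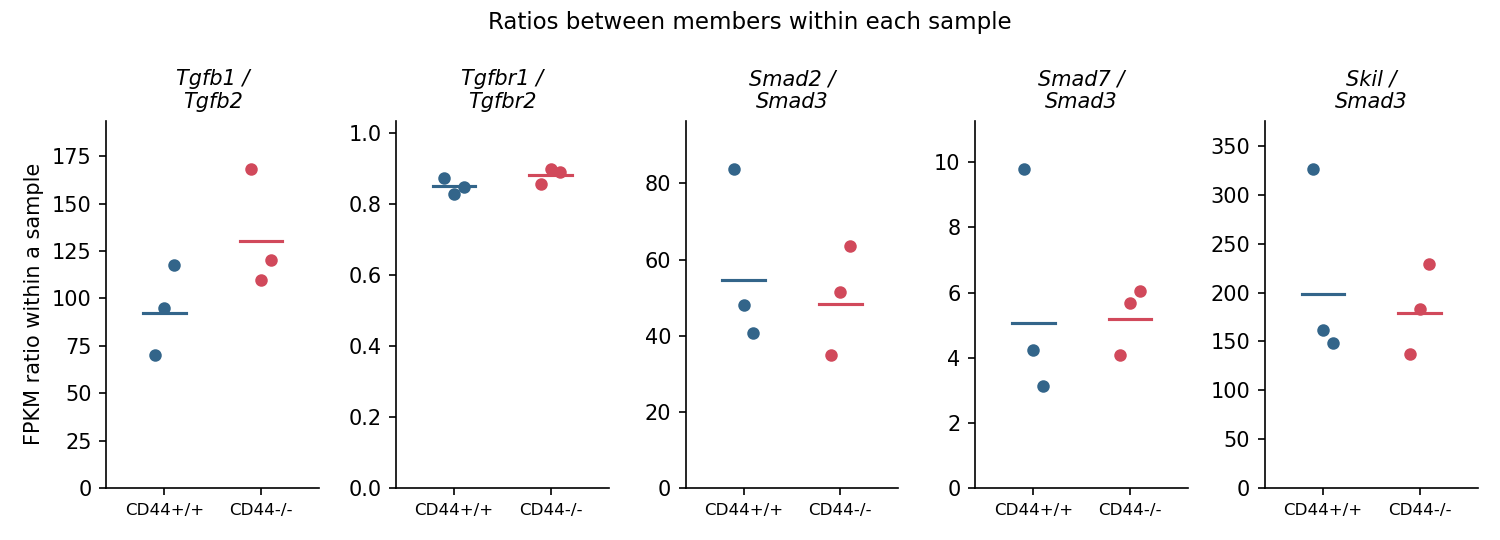
FPKM ratio of a pair of genes within each sample (vertical axes from 0), with points for the 3 samples per genotype and bars for the geometric means. The genotypes overlap in each panel, and the ratios of Smad2, Smad7 and Skil to Smad3 are highest in CD44+/+ replicate 1.

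The remainder of the pathway was described by a list of 64 further genes, of which 37 were tested. None of the 37 passed in either direction, beside 0.111% of all genes tested, and 1 was higher and 2 were lower at an unadjusted p under 0.05, beside 7.69% of all genes tested in both directions together. The median log2 fold change of the 37 genes was -0.01, against 0.01 over all genes tested. Of the genes that hold and free latent TGFβ, 6 of 14 were tested. The highest was Itgb1, an integrin beta chain, with 183.7 ± 6.43 FPKM (SD, n = 3) in CD44+/+ and 179 ± 4.36 FPKM (SD, n = 3) in CD44-/- AMs. Nrros, which tethers latent TGFβ on macrophages, Furin, which cleaves its precursor, and Itgav, the integrin chain that binds its propeptide, were named after their values were seen. For Nrros these were 45.9 ± 4.01 and 43.7 ± 1.42 FPKM (SD, n = 3 each) in CD44+/+ and CD44-/- AMs, while Furin had 126 ± 3.32 and 129 ± 3.96 FPKM, and Itgav 11.9 ± 0.458 and 11.7 ± 0.0577 FPKM. Itgb6, Itgb8 and Ltbp1 were also chosen after their values were seen. Itgb6 and Itgb8, the integrin chains that pair with Itgav to free TGFβ1, were at most 0.093 and 0.123 FPKM in any sample, and Ltbp1, a latent TGFβ binding protein, was listed at 0 in all 6 samples. Thbs1, thrombospondin, had 0.232, 0.654 and 0.546 FPKM in CD44+/+ and 0.895, 0.663 and 0.714 FPKM in CD44-/- AMs, without overlap. For Thbs1 the log2 fold change was 0.64 with a standard error of 0.34 (adjusted p = 0.747). It was 0.29 without CD44+/+ replicate 1 and 0.26 with 1 FPKM added in place of 0.1 FPKM.

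Of 9 other ligands of the family only Gdf15 was tested, with 14.8 ± 3.24 FPKM (SD, n = 3) in CD44+/+ and 13.2 ± 1.5 FPKM (SD, n = 3) in CD44-/- AMs (adjusted p = 0.933). Tgfb3, the third TGFβ, likewise named after its values were seen, was listed at 0 in the CD44+/+ samples and had at most 0.077 FPKM in CD44-/- AMs. Among 10 other receptors, 8 of which were tested, the activin receptor Acvr1b was highest, with 38.8 ± 2.69 and 40.8 ± 1.64 FPKM (SD, n = 3 each). Bmpr1a, a type I receptor for BMPs, had 3.71, 3.36 and 3.89 FPKM in CD44+/+ AMs and 3.05, 2.37 and 2.1 FPKM in CD44-/- AMs. Every CD44-/- value of Bmpr1a was thus under every CD44+/+ value, with a log2 fold change of -0.54 and a standard error of 0.15 (adjusted p = 0.369). Eng, the TGFβ co-receptor endoglin, was named after its values were seen, and had 0.884, 0.709 and 0.398 FPKM in CD44+/+ and 1.10, 1.45 and 1.43 FPKM in CD44-/- AMs. The Eng values did not overlap either, and its log2 fold change of 0.95 (standard error 0.27) did not pass (adjusted p = 0.403). With 1 FPKM added it was 0.49.

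Of 9 other Smads and Smad partners, 7 were tested. Smad1, which carries BMP signals, had 17.4, 17.6 and 18.1 FPKM in CD44+/+ AMs and 16.8, 14.3 and 14.6 FPKM in CD44-/- AMs, without overlap. Its log2 fold change was -0.22 with a standard error of 0.07 (adjusted p = 0.499). Among the 37 tested pathway genes, 2 were higher (Thbs1, Eng) and 2 lower (Bmpr1a, Smad1) without overlap, beside 11.6% of all genes tested. The coactivator Ep300 had 22.1 ± 0.651 and 23.0 ± 1.82 FPKM (SD, n = 3 each) and overlapped. The corepressor Ski, a relative of Skil, was expressed at 84.0 ± 6.99 and 86.1 ± 3.56 FPKM (SD, n = 3 each), and Ppm1a, a phosphatase for Smads, at 39.1 ± 3.12 and 37.6 ± 2.14 FPKM. The 7 tested ubiquitin ligases and proteases and the 4 genes of the kinase branch all had log2 fold changes within 0.1 of zero. Among them were Usp4 (0.06), Usp15 (-0.08), Tab1 (-0.06) and Tab2 (-0.03). The same held for 27 of the 37 tested genes of the whole list and for 66.1% of all genes tested. With a sample left out, Usp15 reached -0.13 and Tab1 -0.12. Of the extracellular antagonists only Fstl1 was tested, with 0.845 ± 0.265 and 0.745 ± 0.0308 FPKM (SD, n = 3 each).

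Genes that TGFβ is known to regulate were read as a list of 19, of which 15 were tested. None passed, beside 0.111% of all genes tested, and 1 was higher and 2 were lower at an unadjusted p under 0.05, beside 7.69%. The median log2 fold change of the 15 genes was -0.06, against 0.01 over all genes tested. Tgfbi, a secreted matrix protein named for its induction by TGFβ, was the highest, with 463 ± 38.7 FPKM (SD, n = 3) in CD44+/+ and 446 ± 56.7 FPKM (SD, n = 3) in CD44-/- AMs (log2 fold change -0.06, standard error 0.10, adjusted p = 0.971). Bhlhe40, a transcription factor, had 101 ± 7.52 and 98.7 ± 12.9 FPKM (SD, n = 3 each), with overlap.

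Fn1, fibronectin, had 305, 370.4 and 428 FPKM in CD44+/+ AMs and 221, 288 and 292 FPKM in CD44-/- AMs. All CD44-/- values of Fn1 lay under the CD44+/+ values, and the log2 fold change of -0.46 (standard error 0.14) did not pass (adjusted p = 0.427). With the replicate number fitted as a block in limma, the standard error was 0.05 and Fn1 did not pass either (adjusted p = 0.083). Cdkn1a, the cell cycle inhibitor p21, had 75.6, 64.9 and 69.6 FPKM in CD44+/+ and 90.1, 88.1 and 88.8 FPKM in CD44-/- AMs, also without overlap. Its log2 fold change was 0.35 with a standard error of 0.06 (adjusted p = 0.126), and it passed only in the comparison without CD44+/+ replicate 1, with a log2 fold change of 0.40 and an adjusted p of 0.0357. Among the 15 tested targets, 1 was lower (Fn1) and 1 higher (Cdkn1a) without overlap, beside 11.6% of all genes tested. Pmepa1, a feedback inhibitor of the pathway, had 19.7, 17.4 and 15.7 FPKM in CD44+/+ and 16.0, 13.5 and 11.8 FPKM in CD44-/- AMs. The Pmepa1 values overlapped by a narrow margin, with a log2 fold change of -0.36 and a standard error of 0.12 (adjusted p = 0.499). With the same block the standard error of Pmepa1 was 0.06, and it did not pass (adjusted p = 0.161). These targets also answer to other signals.

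**Figure D4:**
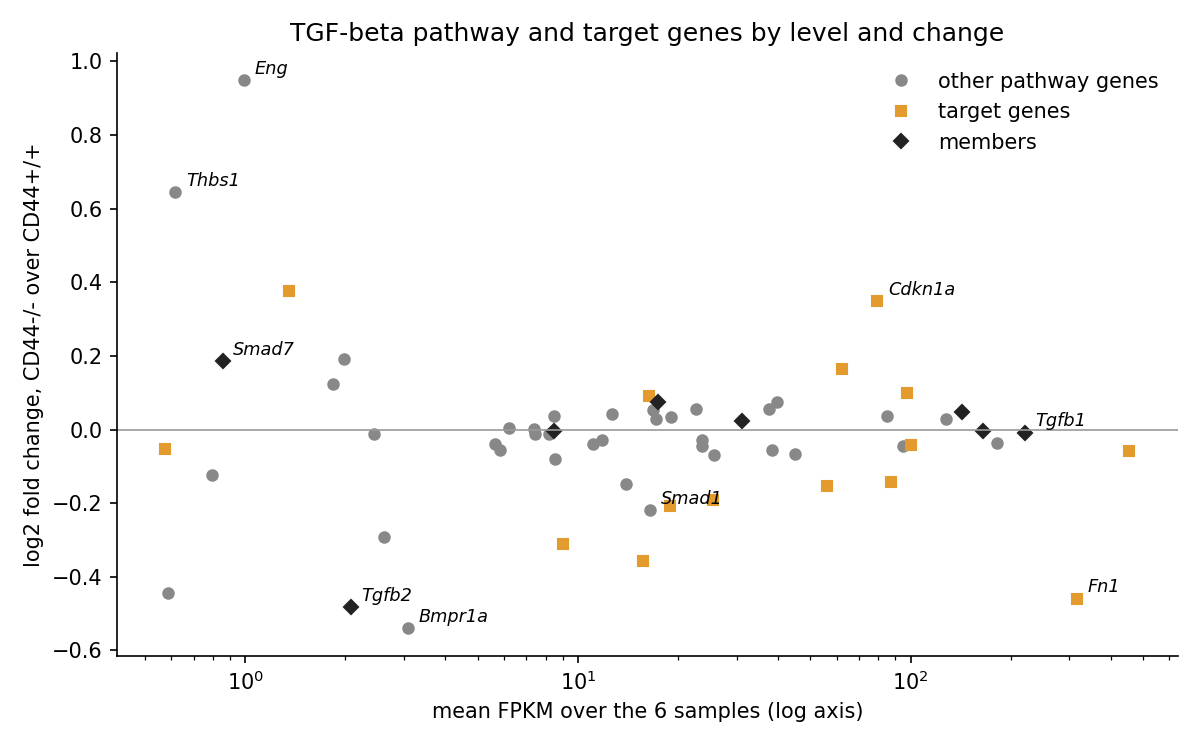
Log2 fold change (vertical axis, CD44-/- over CD44+/+) against mean FPKM over the 6 samples (horizontal log axis) for the 8 tested members, 37 other pathway genes and 15 target genes. Names mark genes whose genotypes do not overlap, and Tgfb1, Tgfb2 and Smad7. The members above 5 FPKM sit near zero, and no gene shown passed the test.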

How the data were processed

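RNA of AMs was measured in 3 CD44+/+ and 3 CD44-/- samples, grouped by the titles of the samples. FPKM values per gene and sample were computed by the authors with Cufflinks, after alignment of read pairs to mm10 by STAR. The table also holds FPKM means per genotype and the Cuffdiff test of the authors, which were not used. Gene positions in it follow another row order than the values and were looked up by name, with the first base counted as 1. 1 gene without a value in a sample was left out.

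Genes that averaged 0.5 FPKM or more over the 6 samples were compared on log2(FPKM + 0.1) in limma 3.58.1 (R 4.3.3) by lmFit and eBayes with a trend, two-sided. Adjusted p-values are by Benjamini-Hochberg across all 10800 genes tested, and a gene passed under 0.05. Ratios were compared by exact permutation tests (scipy 1.17.1). The script was tested on simulated data. Exon overlaps were read from GENCODE vM21.

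The table gives no read numbers, and the depth of a sample is unknown in absolute terms. Steps among values under 0.05 FPKM gave depths of 0.814 to 1.05 relative to CD44+/+ replicate 1. Deviations of same-numbered samples from their group means had correlations of 0.212, 0.132 and 0.211, so the replicate number was also fitted as a block.

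The members, lists and tests were chosen with earlier results of these data known. Named were the members, Cd44, the gene with the highest mean and that with the smallest p in each role of the pathway list, the 3 highest and the 3 of smallest p among the targets, and the 3 genes nearest in profile to the member with the largest SD on log2(FPKM + 0.1). Other names are stated as chosen later. Alternatives were pseudocounts of 1 and 0.01 FPKM, a mean of at least 1 FPKM or no filter, scaling by median ratios, quantile normalization, no trend in eBayes, the replicate block, and each sample left out. Those for the count of separate genotypes were chosen after seeing the data.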

Additional observations from a re-analysis of the deposited data

How the results depend on the processing

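Of the 8 tested members, 0 passed under any alternative, with adjusted p from 0.538 upward, and 0 of the 37 other pathway genes passed. Tgfb2 kept its direction throughout, and Smad7 in every alternative that included it, as its mean was under the limit of 1 FPKM. The other 6 members changed direction with some sample left out. Their ranges were -0.026 to 0.021 for Tgfb1, -0.00094 to 0.078 for Tgfbr1, -0.061 to 0.032 for Tgfbr2, -0.020 to 0.0094 for Smad2, -0.018 to 0.14 for Smad4 and -0.038 to 0.080 for Skil. After quantile normalization Tgfb1 was at 0.00065 and Tgfbr2 at 0.00054. Other genes recomputed with a sample left out that changed direction ranged from -0.25 to 0.024 (Gdf15), -0.0056 to 0.11 (Ep300), -0.0016 to 0.11 (Ski), -0.10 to 0.0088 (Ppm1a), -0.12 to 0.0075 (Tab1), -0.33 to 0.078 (Fstl1), -0.14 to 0.045 (Tgfbi), -0.13 to 0.061 (Bhlhe40), -0.44 to 0.031 (Id1) and -0.79 to 0.056 (Id3), of which Id1 and Id3, in the target list, were chosen after their values were seen. The difference in log2 ratio to Smad3 ranged from -0.39 to 0.13 for Smad2, -0.31 to 0.51 for Smad7 and -0.36 to 0.21 for Skil. Target genes that passed numbered 0 to 1 with a sample left out, the 1 being Cdkn1a without CD44+/+ replicate 1. Members without overlap numbered 0 to 1 with a sample left out (Smad7 without CD44+/+ replicate 1, when 30.3% of all genes tested had none, and Tgfb2 without CD44+/+ replicate 3 or CD44-/- replicate 2), and 1, Tgfb2, after quantile normalization, when 13.1% of all genes tested had none. Of all genes, 12 passed, 7 without a filter, 9 with the replicate block, and 6 to 36 with a sample left out (36 without CD44+/+ replicate 1, 22 without CD44-/- replicate 1, 7 without CD44+/+ replicate 2 and 6 without CD44-/- replicate 2). The replicate block changed no call among the genes named. Cause was not tested. No scaling moved the median of all genes by over 0.1. Standard errors were larger at low levels, and Smad3 was under the limit for the test.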
